A study of Homo sapiens with 9 samples.

Results

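MDA-MB-231 cells carrying the hairpin shCTDP1-#1, which targets CTDP1, were compared with cells carrying the scrambled hairpin shScr. The comparison used 6 of the 9 RNA-seq libraries of the study, 3 per hairpin; the other 3 carry a second hairpin against the same gene, shCTDP1-#2. MDA-MB-231 is a mesenchymal, triple-negative human breast cancer line, that is, one that lacks the estrogen and progesterone receptors and amplified HER2. All 3 groups were infected with lentivirus made in 293FT packaging cells and selected with puromycin, so infection and selection are common to knockdown and control, and uninfected cells were not analysed here. No label states whether the 3 libraries of a group were grown separately, so the p-values weigh differences against a spread that may be only technical. Levels are the authors' TPM (transcript abundance relative to all transcripts of the library) for genomic intervals on hg19; of 55527 intervals, the 14323 (25.8%) with 1 TPM or more in at least 3 of the 6 libraries were compared.

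CTDP1 encodes FCP1, the phosphatase that strips phosphate off the tail (C-terminal domain) of the largest subunit of RNA polymerase II. Kinases add these phosphates as the polymerase starts and elongates transcripts, and their removal lets the enzyme be used again. The question of the comparison is how transcript levels stand when this phosphatase is targeted by 1 particular hairpin, and which changes belong to that hairpin and not to the other.

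The files give positions and no gene names. A name is used only where the gene is known to lie at that hg19 position and where its span in another annotation agreed within 10%; 175 of the 202 loci looked up met this, 136 of them with an identical span. Among genes of the lists below, CDK7, CCL5, CCL20, IER3, EGFR, TGFA, BTC, MDM2, RRM2, BRCA1, MMP3, ISG15, IFIT1, IFIT2, DDIT3, TRIB3, BNIP3 and the leukocyte gene PTPRC did not meet it and were not analysed here. Line markers, chosen from background knowledge of MDA-MB-231 and not given by the labels, were checked where the gene could be named. VIM, a mesenchymal intermediate filament, stood at 1422 to 3641 TPM, CD44 at 707 to 905 and KRT18, an epithelial keratin, at 436 to 459. The estrogen receptor gene ESR1 lay between 0 and 0.13 TPM, the progesterone receptor gene PGR between 0 and 0.2 and the epithelial cadherin CDH1 between 0 and 1.08. ERBB2, which encodes HER2, lay between 25.1 and 28.9 TPM, above the median of 18.5 TPM over all tested intervals. The fibroblast collagen COL3A1 was at 0 to 0.05 TPM and COL1A1 at 3.76 to 5.73, with groups that overlapped. Libraries of a group correlated at 0.99 to 0.991 across intervals and libraries of different hairpins at 0.943 to 0.947. The share of TPM on the mitochondrial sequence was 4.47% in shScr replicate 1 and between 1.12% and 2% in the other 5 libraries; the part of this in the results was not tested, and the counts without that library are given with the totals. More intervals had a value above 0 with shCTDP1-#1 (21901 to 22491) than with shScr (19553 to 20063). TPM keeps no read total, so the depth behind each value is unknown.

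The targeted gene was lower in every shCTDP1-#1 library. CTDP1 (chr18:77439801-77514510, a span of 74710 bases) stood at 13.1, 12.4 and 12 TPM with shScr and at 2.46, 2.62 and 2.46 TPM with shCTDP1-#1. The groups did not overlap, and the difference on the log2(TPM + 1) scale, used for all changes below, was -1.94 (SE 0.098, limma adjusted p = 5.2e-08). In the shCTDP1-#2 libraries CTDP1 was at 3.77, 3.42 and 4.1 TPM, and the 2 hairpins differed by -0.44 (shCTDP1-#1 minus shCTDP1-#2, adjusted p = 0.0036). CTDP1 was thus lowest with shCTDP1-#1.

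POLR2A, which encodes the polymerase subunit that carries the C-terminal domain, rose. It stood at 55.8, 46.9 and 41.3 TPM with shScr and at 252, 241 and 337 TPM with shCTDP1-#1, a difference of 2.50 (SE 0.193, limma adjusted p = 7.6e-06). With shCTDP1-#2 it averaged 175 TPM. All 3 shCTDP1-#1 libraries lay above all control libraries. Of the kinases and phosphatases that act on the same domain, CCNT1, the cyclin partner of CDK9, rose by 0.28, and RPAP2, a phosphatase of the domain, fell by 0.26. CDK9 was at 46.3 to 50.9 TPM against 52.2 to 57.3 with the hairpin, a difference of 0.16 (adjusted p = 0.058), and SSU72, another phosphatase, differed by -0.07 (adjusted p = 0.099). CDK12, an elongation kinase, had a difference of -0.23 (adjusted p = 0.047) with groups that overlapped. The smallest of these values depended on single libraries. The CDK12 call was lost without any 1 of 6 of the 9 fitted libraries, shCTDP1-#2 replicates 1 and 3 among them (limma adjusted p 0.051 to 0.15). The RPAP2 call was lost without shScr replicate 3 (0.061) or shCTDP1-#1 replicate 3 (0.051). CDK9 passed without shCTDP1-#1 replicate 1 (0.048) or without shCTDP1-#2 replicate 1 or 3 (0.043 and 0.036). It also passed when only the shScr and shCTDP1-#1 libraries were fitted. In all, of 7 tested members of this list 2 were higher and 3 lower, with a median of -0.07; of all tested intervals 35.9% were higher and 29.0% lower, with a median of 0.06.

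Across the 14323 intervals tested, 5144 were higher (35.9%) and 4148 lower (29.0%) with shCTDP1-#1 at a limma adjusted p under 0.05. Without shScr replicate 1 the counts were 4935 and 3891. With the 771 tested intervals on alternate or unplaced sequences left out, they were 4869 and 3936. The median size of the called changes was 0.56, against a median SE of 0.0914, so most of these changes were small. A change of 1 or more was reached by 1050 higher and 625 lower intervals, of 2 or more by 140 and 26, and of 3 or more by 22 and 3. The large changes were mostly rises. Values of the groups did not overlap in 69.2% of intervals. In all 6 libraries 12604 intervals had 1 TPM or more, and 4409 of them were called higher and 3928 lower; 476 intervals passed the filter through shCTDP1-#1 libraries alone and 116 through shScr libraries alone. The median over all tested intervals was 0.06. Of all calls 55.4% were higher; under median-of-ratios scaling, which moves the median change close to 0, 48.6% were.

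**Figure D1:**
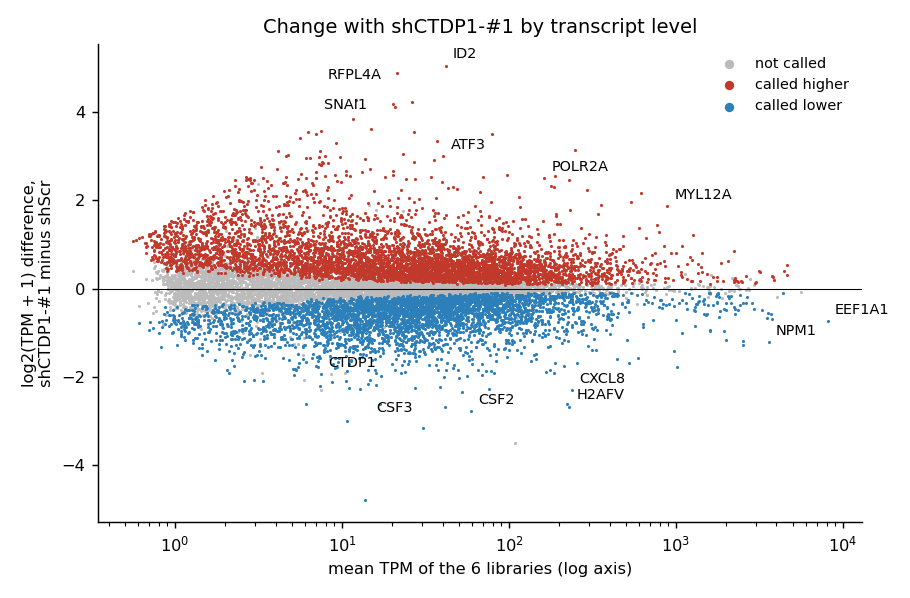
Each point is 1 of the 14323 tested intervals: the horizontal log axis is its mean TPM over the 6 libraries and the vertical axis the log2(TPM + 1) difference, shCTDP1-#1 minus shScr; red and blue mark intervals called higher and lower by limma. The points far from 0 lie mostly above it: 140 intervals were called higher by 2 or more and 26 lower.

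ID2 had the largest rise on the log2(TPM + 1) scale among intervals that met the naming rule; with a pseudocount of 0.1 TPM its change was 5.68 and that of RFPL4A 6.26, so this rank depends on the pseudocount. It encodes a helix-loop-helix protein without a DNA-binding region, which binds E proteins and keeps them off DNA. ID2 (chr2:8818975-8824583) was at 1.49, 1.18 and 1.92 TPM with shScr and at 80.6, 84 and 81.2 TPM with shCTDP1-#1. No library came near those of the other group, and the difference was 5.05 (SE 0.097, limma adjusted p = 1.7e-10). With shCTDP1-#2 ID2 averaged 65.2 TPM, 4.72 above shScr, so both hairpins shared this rise. With shCTDP1-#1 the other 3 family members also rose, where 35.9% of all tested intervals were called higher. ID1 went from 75.2 ± 5.73 to 129 ± 10.5 TPM (SD, n = 3), ID3 from 34.4 ± 1.02 to 72 ± 0.728 and ID4 from 2.64 ± 0.0557 to 5.04 ± 0.788, which are differences of 0.77, 1.05 and 0.72.

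SNAI1 and TNFSF9 followed a like pattern, from near 1 TPM to near 40. SNAI1 (chr20:48599536-48605423), a zinc-finger repressor of epithelial genes, was at 1.3, 0.87 and 1.49 TPM with shScr and at 36.5, 38.7 and 41.8 TPM with shCTDP1-#1, a difference of 4.18 (SE 0.109, limma adjusted p = 7.5e-10). TNFSF9 (chr19:6531010-6535931), the ligand of the T-cell receptor 4-1BB, was at 0.85, 1.93 and 1.46 TPM against 37, 40.7 and 42, a difference of 4.11 (SE 0.148, limma adjusted p = 4.9e-09). With shCTDP1-#2 they reached 14.6 ± 0.448 and 16.8 ± 1.47 TPM. Both were higher with shCTDP1-#1 than with shCTDP1-#2, by 1.35 (adjusted p = 3.4e-06) and 1.20 (adjusted p = 6.5e-05).

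The 250 bases before the RefSeq start of a pair of genes that rose and of a pair that fell are shown so that the regions upstream of opposite responses can be read side by side. They come from GRCh38.p14, all on the plus strand: ID2 at chr2:8681806-8682055, TNFSF9 at chr19:6530776-6531025, CSF2 at chr5:132073539-132073788 and CXCL8 at chr4:73740319-73740568. Capitals mark matches, on either strand, to 4 motifs: the TATA box TATAAA, the AP-1 site TGANTCA, the CRE TGACGTCA and the GC box GGGCGG, read as CCGCCC on the opposite strand.
ID2: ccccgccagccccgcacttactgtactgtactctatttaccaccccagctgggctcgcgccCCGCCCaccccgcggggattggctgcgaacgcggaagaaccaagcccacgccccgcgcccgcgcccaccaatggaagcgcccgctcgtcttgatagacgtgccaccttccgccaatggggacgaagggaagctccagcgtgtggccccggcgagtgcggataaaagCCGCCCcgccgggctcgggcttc
TNFSF9: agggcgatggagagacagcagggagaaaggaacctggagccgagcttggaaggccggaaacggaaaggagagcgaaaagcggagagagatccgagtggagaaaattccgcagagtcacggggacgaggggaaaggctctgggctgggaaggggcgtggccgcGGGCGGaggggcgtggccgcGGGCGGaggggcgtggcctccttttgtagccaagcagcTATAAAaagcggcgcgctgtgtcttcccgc
CSF2: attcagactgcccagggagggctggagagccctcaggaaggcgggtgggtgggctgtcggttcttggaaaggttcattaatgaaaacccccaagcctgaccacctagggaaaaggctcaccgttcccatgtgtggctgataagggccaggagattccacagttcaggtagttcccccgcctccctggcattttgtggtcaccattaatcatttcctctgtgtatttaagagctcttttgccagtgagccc
CXCL8: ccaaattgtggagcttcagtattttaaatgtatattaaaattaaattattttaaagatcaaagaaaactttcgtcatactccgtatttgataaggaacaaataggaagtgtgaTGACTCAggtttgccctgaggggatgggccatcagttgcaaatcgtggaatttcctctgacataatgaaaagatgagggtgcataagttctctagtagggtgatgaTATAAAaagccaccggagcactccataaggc
The ID2 window held 2 GC boxes, and the TNFSF9 window 1 TATA box and 2 GC boxes. The CXCL8 window held 1 TATA box and 1 AP-1 match, and none of the 4 letter strings occurs in the CSF2 window. Among 35116 RefSeq promoters of this length, 10.7% held TATAAA, 6.57% TGANTCA, 1.65% TGACGTCA and 42.6% GGGCGG. Matches in the 4 sequences do not overlap each other and describe letters only.

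3 further named genes in the top 12 have near-identical copies, so reads may have been divided between them and their levels are uncertain. RFPL4A (chr19:56270380-56274541) was at 0.28, 0.58 and 0.54 TPM with shScr and at 42.1, 38.5 and 45.5 TPM with shCTDP1-#1, a difference of 4.88. Its neighbour RFPL4AL1 (chr19:56280507-56284545) was at 0.54, 0 and 0.37 against 23.5, 25.5 and 22.6 TPM, a difference of 4.27. HIST2H4B (chr1:149825607-149832714), a histone H4 gene with a copy close by, was at 3.53, 0 and 3.27 against 65.2, 39.1 and 45.8 TPM. Its difference of 4.22 had a much wider error than the others (SE 0.634, limma adjusted p = 0.00086). With shCTDP1-#2 RFPL4A, RFPL4AL1 and HIST2H4B averaged 25.6, 14.3 and 38.1 TPM. The rule that chose these intervals required groups that do not overlap, and levels below 1 TPM with shScr mean that the first pair passed the filter through the shCTDP1-#1 libraries alone.

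The remaining 6 of the top 12 rises are given by position only. They are chr5:148349903-148350216 (314 bases, from 0.757 to 22.6 TPM on average, a difference of 3.85), chr2:112248850-112268567 (19718 bases, 0.363 to 14.6, 3.56), chr18:9473419-9474004 (586 bases, 0.143 to 12.3, 3.55) and chr6:34231088-34231450 (363 bases, 0.343 to 13.6, 3.51). Another 2 lie on alternate sequences: HSCHR6_MHC_COX 31418402 to 31421036, which rose from 1.41 to 28.3 TPM (3.61), and HG1497_PATCH 152856571 to 152865065, which rose from 3.39 to 50.4 TPM (3.55). Thus 3 of these 6 spans are under 1 kb. How reads were divided between alternate sequences and the main chromosomes is unknown, so levels on alternate sequences are uncertain. The chr2 and chr18 intervals were below 1 TPM in every shScr library. They passed the filter through the shCTDP1-#1 libraries alone.

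**Figure D2:**
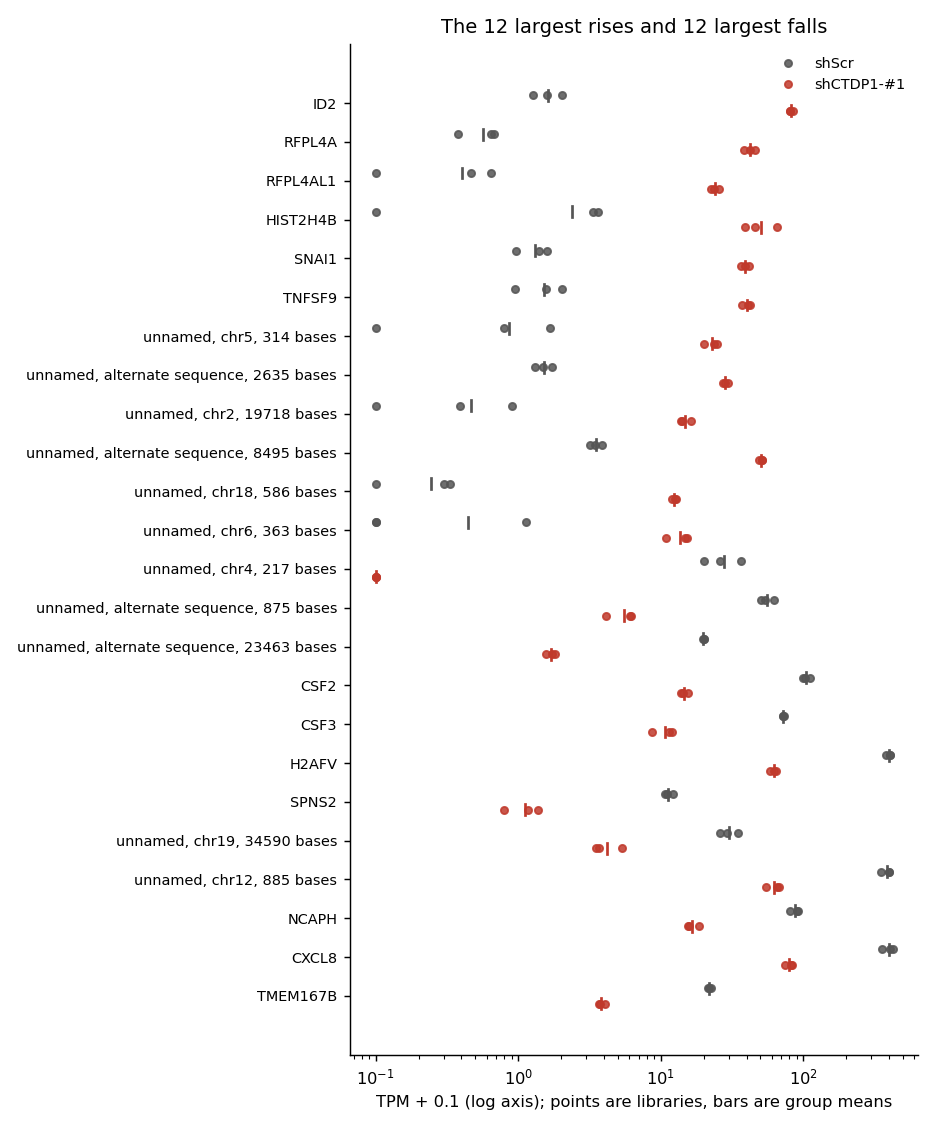
Each point is 1 library and each bar a group mean, on a log axis of TPM + 0.1, for the 12 largest rises and the 12 largest falls with shCTDP1-#1. Groups are apart in all 24, as the rule that chose them required; ID2 sits near 1.5 TPM with shScr and above 80 TPM with shCTDP1-#1.

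Secreted myeloid growth factors and a chemokine were among the 12 largest falls. CSF2 (chr5:131409483-131411859) encodes GM-CSF and stood at 103, 100 and 111 TPM with shScr and at 13.8, 15.5 and 14.3 TPM with shCTDP1-#1. All knockdown libraries lay far below all controls, with a difference of -2.77 (SE 0.079, limma adjusted p = 1.3e-09). CSF3 (chr17:38171614-38174066) encodes G-CSF and was at 72.2, 72.3 and 72.6 TPM against 11.9, 11.4 and 8.57, a difference of -2.67 (SE 0.104, limma adjusted p = 8.6e-09). CXCL8 (chr4:74606223-74609433) encodes the neutrophil attractant interleukin-8 and was at 359, 423 and 406 TPM against 81.4, 83.4 and 74.8, a difference of -2.29 (SE 0.068, limma adjusted p = 1.7e-09). CSF2 and CXCL8, whose upstream sequences are printed above, were lower with shCTDP1-#1 than with shCTDP1-#2 as well, by 0.81 and 0.72. The differences of shCTDP1-#2 from shScr were -1.95 for CSF2, -2.39 for CSF3 and -1.58 for CXCL8.

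H2AFV had the smallest SE of the 12 largest falls. It encodes a histone H2A.Z variant, and its interval (chr7:44866390-44887682) overlaps no other. H2AFV was at 381, 408 and 404 TPM with shScr and at 58.3, 62.2 and 64.7 TPM with shCTDP1-#1, a difference of -2.67 (SE 0.044, limma adjusted p = 6e-11). With shCTDP1-#2 it was at 337, 344 and 339 TPM, a difference of -0.22 against shScr (adjusted p = 0.001). The hairpins differed by -2.44 (adjusted p = 2.7e-10), with all shCTDP1-#2 libraries far above all shCTDP1-#1 libraries. Because the small shCTDP1-#2 difference passed, H2AFV is left out of the changes counted below as belonging to shCTDP1-#1 alone.

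NCAPH (chr2:97001525-97039583), a subunit of the condensin I complex that compacts mitotic chromosomes, fell from 87.5 ± 5.94 to 16.5 ± 1.73 TPM (SD, n = 3), a difference of -2.34. SPNS2 (chr17:4402133-4442330), a transporter of sphingosine-1-phosphate, fell from 11.2 ± 0.777 to 1.01 ± 0.296 TPM, a difference of -2.61. TMEM167B (chr1:109632425-109639556), a small membrane protein gene, fell from 21.8 ± 0.536 to 3.72 ± 0.202 TPM, a difference of -2.27. The chr12:76424274-76425158 interval of 885 bases fell from 384 to 62.5 TPM, and chr19:39405906-39440495, which overlaps 4 other intervals, from 29.8 to 4.09 TPM. The protocol's kit does not keep strand, so strand cannot separate reads where overlapping intervals share transcribed bases. Of the 14323 tested intervals 9438 overlap another by span, ID2, SPNS2 and TMEM167B among them. On alternate sequences, where levels are uncertain as said above, HSCHR17_4_CTG4 39215722 to 39216596 fell from 55.7 to 5.39 TPM. HG27_PATCH 26636518 to 26659980 fell from 19.8 to 1.6 TPM. The differences of shCTDP1-#2 from shScr were -1.55 for NCAPH, -2.02 for SPNS2 and -3.45 for HSCHR17_4_CTG4. For the chr12 and chr19 intervals they were -1.76 and -1.47. TMEM167B and HG27_PATCH differed by -0.15 and -0.12 with shCTDP1-#2, which did not pass.

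The numerically largest fall was an interval of 217 bases, chr4:89442724-89442940. It was at 19.9, 26 and 36.7 TPM with shScr and listed at 0 in all 3 shCTDP1-#1 libraries, and with shCTDP1-#2 it was at 0, 0 and 26.5 TPM. The SE of its difference was 1.248, against 0.0914 for the median interval, and it passed the filter through the shScr libraries alone, so no test is given for it. It overlaps 2 other intervals, and it was the only tested interval at 1 TPM or more in every shScr library and at 0 in every shCTDP1-#1 library. In the other direction, 17 intervals were listed at 0 in all shScr libraries and had 1 TPM or more in all shCTDP1-#1 libraries; 8 of them span under 1 kb, and chr6:51274879-51275335, at 9.22, 2.52 and 4.22 TPM, is among them.

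Ranked by TPM rather than by ratio, the largest shifts were in abundant genes. EEF1A1, the elongation factor that brings aminoacyl-tRNA to the ribosome, fell from 10100 ± 65.3 to 6090 ± 187 TPM (SD, n = 3), a difference of -0.73. NPM1, a nucleolar chaperone, fell from 5020 to 2180 TPM, VIM from 3580 to 1480 and HSPA8, the constitutive Hsc70 chaperone, from 3480 to 1540. MYL12A, a regulatory light chain of non-muscle myosin, rose from 371, 376 and 396 TPM to 1386, 1391 and 1382, a difference of 1.86 (SE 0.032, limma adjusted p = 6e-11). MYL6, an essential myosin light chain, rose from 1590 to 2880 TPM, a difference of 0.85. With shCTDP1-#2 EEF1A1, NPM1, VIM and HSPA8 averaged 4840, 2410, 2070 and 2690 TPM, and MYL12A and MYL6 1600 and 2550 TPM. EEF1A1 and MYL12A thus stood further from shScr with shCTDP1-#2 than with shCTDP1-#1, and NPM1, VIM, HSPA8 and MYL6 less far. The ribosomal protein genes RPL39 and RPS24 rose by 0.40 and 0.31 with shCTDP1-#1, while with shCTDP1-#2 they were 0.21 and 0.14 below shScr. The chr14:50043390-50065408 interval rose from 3820 to 5480 TPM, and chr1:153507075-153508720 fell from 4620 to 2870. Called rises together added 13.2% of a library's TPM and called falls took 12.9% away; the first 100 intervals held 31.5% of the gain and 44.1% of the loss.

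Cytokine and NF-kB target genes were mostly lower. Of 14 tested, 10 fell and 4 did not pass, where 29.0% of all intervals were called lower, and the list's median was -0.91 against 0.06 over all intervals. IL11, an interleukin-6 family cytokine, fell from 145 ± 6.11 to 49.1 ± 4.08 TPM, a difference of -1.55. The chemokines CXCL1 and CXCL2 fell by 1.04 and 1.17, and the interleukin-1 genes IL1A and IL1B by 0.87 and 0.95. ICAM1, an adhesion molecule, and NFKBIA, the inhibitor of NF-kB, fell by 0.44 and 0.24. IL6 differed by -0.31 (adjusted p = 0.063) with groups that overlapped, and without shScr replicate 2 by -0.47 (limma adjusted p = 0.0022); without shScr replicate 3 it was -0.19. CXCL3, LIF and TNFAIP3 had differences of -0.04, -0.19 and 0.14 that did not pass. CCL2 was under the filter, with at most 0.33 TPM.

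Genes of proliferating cells were mostly lower. Of 15 tested proliferation genes, 12 fell and 2 rose, with a median of -0.73, beside 29.0% lower, 35.9% higher and a median of 0.06 over all intervals. In bulk RNA, fewer dividing cells and less RNA per dividing cell cannot be told apart. The mitotic kinases PLK1 and AURKA fell most in this list along with TOP2A and CCNB1. PLK1 was at 126, 129 and 126 TPM with shScr and at 26.4, 25.6 and 25.1 TPM with shCTDP1-#1, a difference of -2.26 (SE 0.055, limma adjusted p = 5.1e-10). AURKA fell by 1.83, TOP2A, the DNA topoisomerase of dividing cells, by 1.88 and CCNB1, the mitotic cyclin, by 1.68. The replication genes PCNA and TK1 fell by 0.29 and 0.14, and the helicase subunit MCM2 differed by -0.06, which did not pass. The members that rose were E2F1, a transcription factor of S-phase entry, by 0.50, and CCNE1, the cyclin of that step, by 0.62. Both were lower than shScr with shCTDP1-#2, and the hairpins differed by 0.62 for E2F1 and 1.10 for CCNE1.

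The inhibitors of cyclin-dependent kinases rose. CDKN1A (p21) was at 160, 158 and 146 TPM with shScr and at 327, 336 and 332 TPM with shCTDP1-#1, a difference of 1.10 (SE 0.039, limma adjusted p = 4.3e-09). CDKN1B (p27) rose by 0.80 and CDKN1C (p57) by 1.43, from 3.91 to 12.3 TPM. The differences of shCTDP1-#2 from shScr were 1.68 for CDKN1A, 1.03 for CDKN1B and 1.06 for CDKN1C. With shCTDP1-#1, GADD45A, a damage-response gene, rose by 0.69 and CCND1, the cyclin of early G1, by 0.30. In all 5 of 6 tested members rose, where 35.9% of all intervals did, and GDF15, a stress-induced cytokine, differed by 0.33 (adjusted p = 0.19) with 5.09 TPM in shScr replicate 1 against 10.1 and 10.7 in the other controls. Of 7 Fanconi anemia and homologous recombination genes 4 fell, among them FANCI, FANCD2 and PALB2, by 0.72, 0.83 and 0.49, where 29.0% of all intervals fell, and FANCA, BRCA2 and BRIP1 did not pass. Without shCTDP1-#1 replicate 3, BRCA2 (-0.36, limma adjusted p = 0.023) and BRIP1 (-0.23, limma adjusted p = 0.045) passed too.

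**Figure D3:**
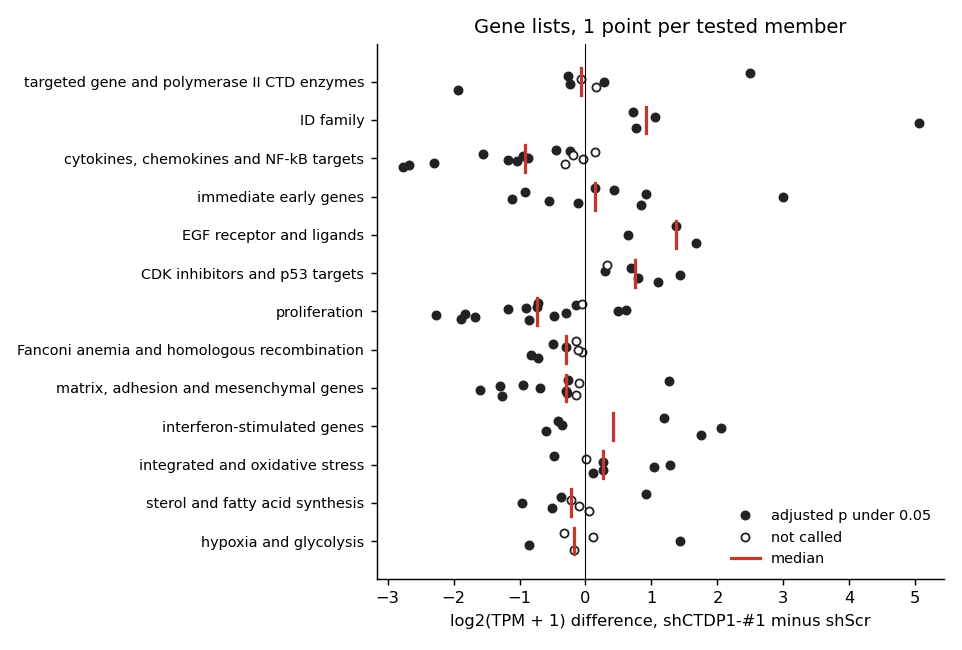
Each point is 1 tested member of a gene list, placed by its log2(TPM + 1) difference, shCTDP1-#1 minus shScr; filled points passed a limma adjusted p of 0.05 and the red bar is the list's median. Cytokine and proliferation genes lie mostly left of 0, with medians of -0.91 and -0.73, and the ID family lies right of it, with a median of 0.91.

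Signal-responsive genes went both ways. ATF3, a stress-induced transcription factor, rose from 8.1, 9.59 and 7.11 TPM to 69.8, 74.4 and 73 TPM, a difference of 2.99 (SE 0.089, limma adjusted p = 1.7e-09). It was higher still with shCTDP1-#2, at 90.6 TPM on average. With shCTDP1-#1, FOS, DUSP1, KLF4 and KLF6 rose by 0.84, 0.91, 0.43 and 0.15, whereas EGR1, DUSP6, JUN and FOSL1 fell by 1.11, 0.92, 0.55 and 0.11. Thus 5 of 9 rose and 4 fell, beside 35.9% and 29.0% of all intervals; under median-of-ratios scaling 4 rose and 4 fell. DUSP6, a phosphatase of ERK, was at 413, 424 and 416 TPM with shScr and at 222, 214 and 226 TPM with shCTDP1-#1; with shCTDP1-#2 it was at 358, 346 and 352 TPM. Among ligands of the EGF receptor, HBEGF rose from 64.5 ± 0.759 to 168 ± 4.66 TPM (1.37), EREG from 2.23 to 9.3 TPM (1.68) and AREG from 41.9 to 65.7 TPM (0.64). These are all 3 tested members of that list, where 35.9% of all intervals rose. AREG was below the control with shCTDP1-#2, at 36 TPM, and the hairpins differed by 0.85. The FOSL1 call was lost without any 1 of 6 of the 9 fitted libraries, shCTDP1-#2 replicate 3 among them (limma adjusted p 0.052 to 0.13).

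Matrix and mesenchymal genes were mostly lower: 8 of 11 tested fell and 1 rose, with a median of -0.29, beside 29.0% and 35.9% of all intervals and a median of 0.06. CYR61, a matricellular protein gene, was at 638, 685 and 684 TPM with shScr and at 210, 225 and 226 TPM with shCTDP1-#1, a difference of -1.60 (SE 0.04, limma adjusted p = 6.1e-10). Its relative CTGF fell by 0.69, THBS1 (thrombospondin) by 1.29 and MMP1 (interstitial collagenase) by 0.94. VIM fell by 1.27 and ZEB1, a repressor of epithelial genes, by 0.28, while SNAI1, of related function, rose as given above. TGFBI, an extracellular matrix protein gene induced by TGF-beta, rose by 1.26. CD44 fell by 0.26 with shCTDP1-#1 and was 0.15 above shScr with shCTDP1-#2. FN1 and LOX differed by -0.14 and -0.10 and did not pass; FN1 passed without shCTDP1-#1 replicate 3 (-0.35, limma adjusted p = 0.044). CDH2 and SPARC were under the filter.

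Interferon-stimulated genes were called in both directions. MX1, an antiviral GTPase, rose from 4.05, 2.91 and 4.11 TPM to 17.1, 17.9 and 19.9 TPM, a difference of 2.05 (SE 0.113, limma adjusted p = 9.8e-08). IFI6 and IFI27 rose by 1.75 and 1.19. Of 6 tested members 3 rose and 3 fell, beside 35.9% and 29.0% of all intervals, and among the falls were IFIT3 and IFI44L by 0.60 and 0.41. IFI44L was at 0.97 to 2.09 TPM, and its call was lost without any 1 of 5 libraries (limma adjusted p 0.052 to 0.12). OAS1 was under the filter. The differences of shCTDP1-#2 from shScr were 1.88 for MX1, 2.21 for IFI6 and 1.06 for IFI27.

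Of 7 tested genes of the integrated and oxidative stress response, 5 rose, where 35.9% of all intervals did, and NQO1, a quinone reductase, fell by 0.47. Under median-of-ratios scaling 3 rose and 1 fell. SESN2, a stress-induced regulator of mTORC1, rose from 8.37 to 21.8 TPM (1.28) and CHAC1, a glutathione-degrading enzyme induced by ATF4, from 8.25 to 18.2 TPM (1.04). ASNS, asparagine synthetase, rose by 0.27. The calls of ATF4 (0.11) and HMOX1 (0.26) were lost without shScr replicate 1 (limma adjusted p of 0.061 and 0.062), among other single libraries, and HSPA5, the endoplasmic reticulum chaperone, differed by 0.01.

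Against shScr, the 2 hairpins differed in sign for the sterol gene INSIG1. INSIG1, which retains the sterol sensor in the endoplasmic reticulum, was at 19.6, 19.2 and 20.1 TPM with shScr, at 9.22, 8.65 and 10.8 TPM with shCTDP1-#1 and at 25.8, 26.3 and 26.4 TPM with shCTDP1-#2. The 3 groups did not overlap, and the hairpins differed by -1.37 (SE 0.079, limma adjusted p = 3.4e-07). SCD, a fatty acid desaturase, fell by 0.37, and IDI1, an isomerase of the sterol pathway, rose by 0.92. Of 7 tested members 1 rose and 3 fell, beside 35.9% and 29.0% of all intervals; the others, HMGCS1 and FASN among them, did not pass, and FASN passed without shCTDP1-#1 replicate 3 (-0.32, limma adjusted p = 0.031). Of 5 hypoxia and glycolysis genes 1 rose and 1 fell, beside 35.9% and 29.0% of all intervals. ADM, the vasodilator peptide adrenomedullin, rose by 1.43 and LDHA, lactate dehydrogenase, fell by 0.85. VEGFA, SLC2A1 and CA9 did not pass. Without shScr replicate 2, VEGFA (-0.24, limma adjusted p = 0.035) and SLC2A1 (0.16, limma adjusted p = 0.028) passed.

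The calls were spread over the genome and over spans and levels. Intervals under 1 kb were called least, 24.3% of 638 higher and 11.1% lower; their median SE was 0.239, and their median level 3.12 TPM. For spans of 1 to 10 kb the shares were 39.1% and 26.5%, for 10 to 100 kb 36.3% and 31.4%, and for longer spans 33.4% and 28.7%. Among intervals at 10 TPM or more, 20.8% of those under 1 kb were called higher and 20.8% lower, while 34.7%, 36% and 31.6% were called lower in the 3 classes above 1 kb. At this level the median SE was still 0.145 under 1 kb, against 0.0638, 0.0675 and 0.078 in those 3 classes. Fewer calls under 1 kb therefore do not show fewer changes. Called-higher intervals had a median span of 25191 bases and called-lower ones of 30986, against 27561 over all tested. By level, 33.8% of intervals under 2 TPM were higher and 11.4% lower. Low intervals could pass the filter through 1 group alone, and over all levels 476 did so through shCTDP1-#1 and 116 through shScr. The split of calls at low levels therefore cannot be told apart from the filter. Above 100 TPM the shares were 44.8% and 34.4%. Chromosome 19 had 40.5% higher and 22.2% lower with a median of 0.15, and chromosome 5 had 31.7% and 32.8%.

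**Figure D4:**
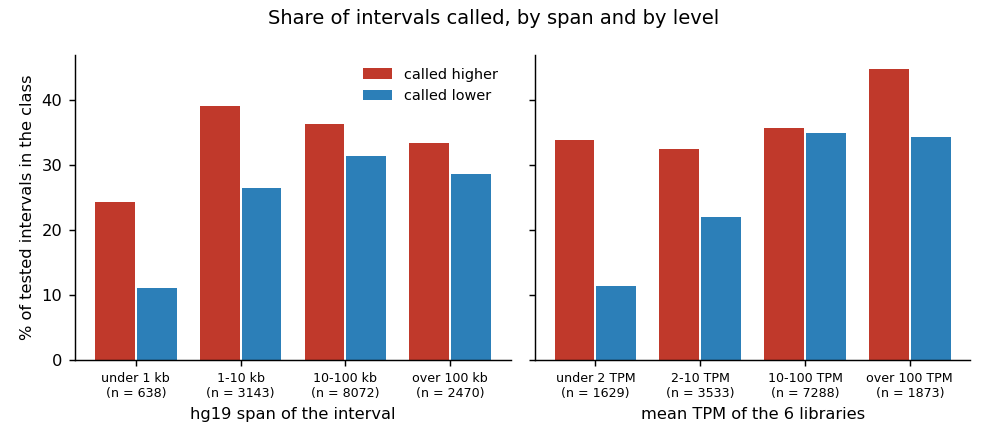
Bars give the share (%) of tested intervals called higher (red) or lower (blue) by limma with shCTDP1-#1, by hg19 span on the left and by mean TPM of the 6 libraries on the right. Intervals under 1 kb have the lowest shares of the span classes, 24.3% and 11.1%.

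Changes were counted as belonging to shCTDP1-#1 alone where the interval passed against shScr, did not pass for shCTDP1-#2 against shScr, and passed in the direct test of shCTDP1-#1 against shCTDP1-#2. Against shScr, 65.0% of intervals passed with shCTDP1-#2. Both comparisons share the shScr libraries, and a miss with shCTDP1-#2 does not show that its level equals the control. In the direct test 3034 intervals were higher (21.2%) and 4428 lower (30.9%) with shCTDP1-#1. By this rule 697 intervals (4.87% of those tested) were higher with shCTDP1-#1 alone and 925 (6.46%) lower, which is 13.5% of its higher calls and 22.3% of its lower calls. The excess of lower intervals depended on the scaling: the counts were 838 higher and 841 lower with upper-quartile scaling, and 792 and 867 with median-of-ratios scaling. Most were small: the median difference against shScr was 0.50 and -0.51, and only 41 higher and 67 lower intervals reached 1 in both tests. Their median levels were 24.3 and 22.1 TPM, against 22.4 and 26.3 for all called higher and lower intervals and 18.5 over all tested intervals, and their median spans 32953 and 33536 bases.

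PSG4, MYD88, CTHRC1 and MAML3 were the named genes among the 8 largest rises with this hairpin alone. PSG4 (chr19:43696854-43711451), a pregnancy-specific glycoprotein gene in a cluster of similar genes that leaves its level uncertain, was at 2.03, 2.21 and 2.83 TPM with shScr, at 17.5, 18.9 and 20.1 TPM with shCTDP1-#1 and at 2.46, 2.2 and 2.25 TPM with shCTDP1-#2. The hairpins differed by 2.59 (SE 0.116, limma adjusted p = 6.3e-08). MYD88 (chr3:38179969-38184513), the adaptor of Toll-like and interleukin-1 receptors, was at 44.5, 42.3 and 44.5 TPM with shScr, at 114, 112 and 120 TPM with shCTDP1-#1 and at 44.8, 45 and 42.1 TPM with shCTDP1-#2. For both genes the shCTDP1-#2 libraries lay within or next to the range of the controls, and MYD88 differed by 1.37 between hairpins (SE 0.048, limma adjusted p = 1.2e-08). CTHRC1, a secreted collagen-repeat protein gene, rose from 3.39 to 10.4 TPM and MAML3, a coactivator of Notch, from 3.04 to 8.83 TPM, differing between hairpins by 1.61 and 1.30. Unnamed intervals in this group were chr6:51274879-51275335, chrX:99899215-99926296 (7.05 to 18.6 TPM), chr11:10906432-10920869 (2.68 to 6.94) and chr2:96305929-96306352 (6.62 to 18.9). The chr6 interval was at 0 in every shScr library and passed the filter through the shCTDP1-#1 libraries alone.

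Of the falls with this hairpin alone, HG27_PATCH 26636518 to 26659980 had the largest on the log2(TPM + 1) scale. With a pseudocount of 0.1 TPM its change against shScr was -3.56 and that of chr8:71485681-71486671 was -4.20. HG27_PATCH and HG1063_PATCH are alternate sequences. How reads were divided between them and the main chromosomes is unknown, so levels on both are uncertain. HG27_PATCH was at 19.7, 19.9 and 19.9 TPM with shScr, at 1.7, 1.63 and 1.46 TPM with shCTDP1-#1 and at 18.4, 18.4 and 17.6 TPM with shCTDP1-#2, and the hairpins differed by -2.88 (SE 0.076, limma adjusted p = 3.5e-09). TMEM167B was at 21.7, 21.2 and 22.3, then 3.95, 3.64 and 3.57, then 19.1, 18 and 21.6 TPM in the same order, a difference between hairpins of -2.12. GNA15 (chr19:3136191-3163767), a G-protein alpha subunit, was at 28.4, 33 and 31.4, then 8.7, 8.14 and 9.32, then 34.2, 32 and 30.3 TPM. In each of these the shCTDP1-#1 libraries stood alone and the other 6 libraries lay together. The rule that chose them required shCTDP1-#1 to lie apart from shScr and shCTDP1-#2 not to pass against shScr. The hairpin difference of GNA15 was -1.77 (SE 0.079, limma adjusted p = 6e-08), and that of CARNMT1 (chr9:77595936-77643339), a carnosine methyltransferase, was -1.98. The chr5:79275584-79287082 interval fell from 17.5 to 5.01 TPM and HG1063_PATCH 102455853 to 102538940 from 38.2 to 11.2. The last 2 had wide errors: chr10:93565803-93567253 ranged from 53.4 to 113 TPM with shScr and from 10.1 to 37.1 with shCTDP1-#1 (SE 0.516), and chr8:71485681-71486671 reached 11.5 TPM at most. The call of the latter was lost without shCTDP1-#1 replicate 1 or 2 (adjusted p = 0.059 in each case).

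**Figure D5:**
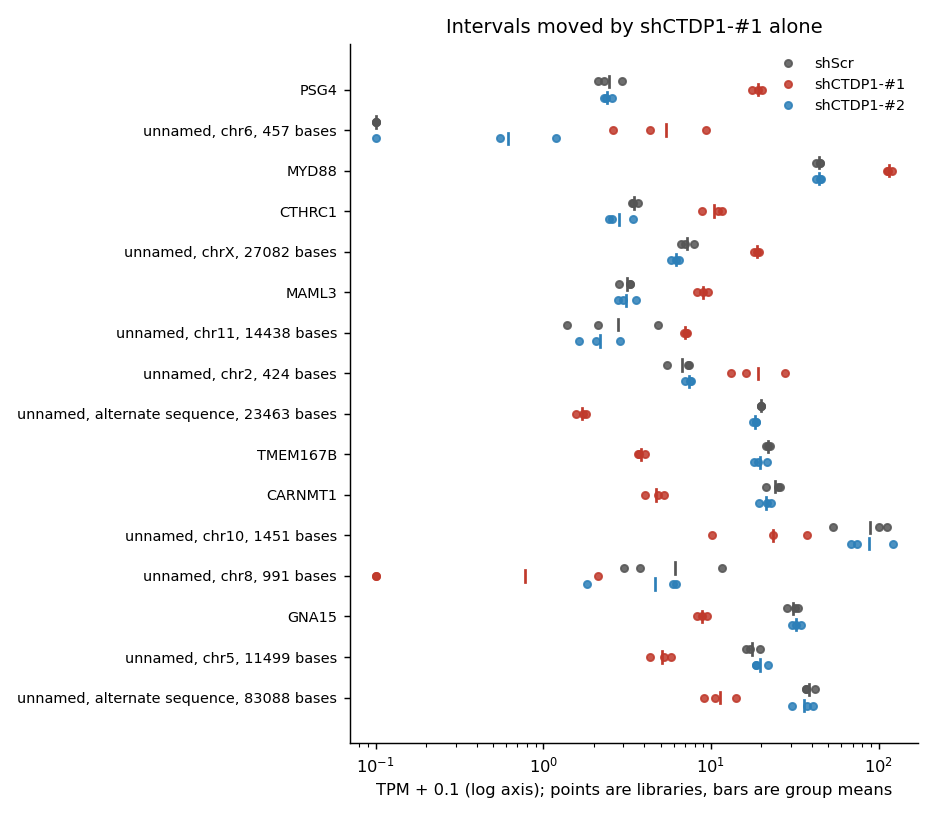
Each point is 1 library and each bar a group mean, on a log axis of TPM + 0.1, for the 8 largest rises and 8 largest falls moved by shCTDP1-#1 alone. The shCTDP1-#1 points (red) stand apart from the shScr points (grey), as the rule that chose these intervals required. For MYD88 the shCTDP1-#1 points lie at 112 to 120 TPM against 42.3 to 44.5 TPM.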

How the data were processed

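RNA-seq libraries of MDA-MB-231 cells (3 groups of 3) were made with the TruSeq RNA kit v2, per the labels' protocols. STAR, RSEM and hg19 were used per the submitters' processing notes; their versions are not given in the sources used here. The deposited values were made by the authors with RSEM, per those notes, and are read as TPM, since each file sums to nearly the total of that unit. Each file lists 57773 intervals. The 2246 rows that share an interval were left out (0.355% to 0.391% of TPM), leaving 55527.

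Intervals with at least 1 TPM in 3 of the 6 libraries were fitted as log2(TPM + 1) with limma 3.58.1 (trend, robust; statmod 1.5.0) in R 4.3.3. All 9 libraries entered 1 fit of group means with 6 residual degrees of freedom, and p-values were Benjamini-Hochberg adjusted over all 14323. The scale understates changes of low intervals. The fit was tested on simulated data.

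Intervals named are the 12 largest changes in each direction (at least 5 TPM on average in the higher group, groups apart). The 8 named in each direction that shCTDP1-#1 alone moved met the same conditions. Also named are the 5 with the largest TPM difference in each direction, and members of 13 gene lists. Mitochondrial and Y intervals were left out of these rankings. Names rest on background knowledge of hg19 positions, some looked up after values were seen, checked by span against GENCODE v29; 27 of 202 loci were not named. Members and lists were chosen with earlier results of these data known. Alternatives tried were the pseudocount, filter, scaling, fit, a test against a fold of 1.5, a replicate block and leaving out each library. Some members of the lists are counted but not reported here by name.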

Additional observations from a re-analysis of the deposited data

Results flagged for a closer look

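By limma's test of the difference itself, the 2 hairpins gave different levels in 3034 intervals higher and 4428 lower with shCTDP1-#1 than with shCTDP1-#2. Of these, 697 higher and 925 lower intervals met the rule for changes of shCTDP1-#1 alone. The same test set apart the following single intervals, which were chosen partly by it, so the values are a description. Among the rises the log2 difference between hairpins was 2.59 for PSG4, 1.61 for CTHRC1, 1.37 for MYD88 and 1.30 for MAML3. It was 1.98 for chr6:51274879-51275335, 1.48 for chrX:99899215-99926296, 1.38 for chr11:10906432-10920869 and 1.20 for chr2:96305929-96306352. Among the falls it was -2.88 for HG27_PATCH 26636518 to 26659980, -2.12 for TMEM167B, -1.98 for CARNMT1, -1.98 for chr10:93565803-93567253 and -1.81 for chr8:71485681-71486671. GNA15 and chr5:79275584-79287082 each differed by -1.77, and HG1063_PATCH 102455853 to 102538940 by -1.61.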

How the results depend on the processing

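Tested against a fold change of 1.5 instead of no change, 1201 intervals were higher and 883 lower with shCTDP1-#1 (main counts 5144 and 4148). With shCTDP1-#1 alone, 67 were higher and 176 lower (main counts 697 and 925). In this stricter test 47 of the 147 single results lost their call. The chr4:89442724-89442940 interval is counted among them, although it passed the filter through the shScr libraries alone and no test is given for it above. Leaving out each of the 9 libraries gave 4740 to 5127 higher and 3844 to 4169 lower intervals, and 591 to 751 higher and 832 to 980 lower for shCTDP1-#1 alone. Replicate numbers did not pair the libraries: residuals of shScr and shCTDP1-#1 libraries with the same number correlated at 0.0083, 0.0612 and 0.0138, the other pairs at -0.0661 to 0.0517, and shScr replicate 1 correlated best with shCTDP1-#1 replicate 3. With the replicate number as a block, 5113 intervals were higher and 4113 lower, and 703 and 919 for shCTDP1-#1 alone. Upper-quartile scaling gave 4986 higher and 4320 lower (53.6% of calls higher, median 0.04), and median-of-ratios scaling 4539 and 4801 (48.6%, median -0.01). No single result that passed the test changed direction under any alternative that was run; differences near 0 that did not pass, such as those of ERBB2, KRT18 and HSPA5, changed sign under some. Under median-of-ratios scaling ATF4, HMOX1 and KLF6 lost their call, and 9 results gained one, among them BRIP1, CXCL3, FASN, IL6, LOX, MCM2, SSU72 and VEGFA; the cause was not tested. TPM carries no read total, so what depth limits is unknown.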
